A study of Mus musculus with 4 samples.

Results

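The genes described here encode 8 proteins of the muscle Z-disc or of its stretch-sensing apparatus: Actn3, Actn2, Csrp3, Ankrd2, Tcap, Ldb3, Pdlim3 and Capn3. Their probe sets were chosen by name, as those to which the platform annotation gives exactly 1 gene symbol from this set. The genes themselves were chosen with earlier results of these data known. All 8 genes were on the array, with 11 of its 12488 probe sets. Actn3 had 2 probe sets, Capn3 had 3, and each of the other 6 genes had 1.

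Total RNA of soleus muscle, a slow-twitch calf muscle, was measured on 4 arrays: 2 from HSL-null mice and 2 from wildtype mice. HSL, hormone-sensitive lipase, is encoded by Lipe and releases fatty acids from stored fat. The labels describe the arrays as technical duplicates of muscle from pools of 5 female mice, all 6 months old, so each genotype was represented by 1 pool and no test across animals was possible. The strain and the kind of null allele were not given in the sources used here, and no treatment is named for either genotype.

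The Z-disc is the protein lattice at the border of neighbouring sarcomeres, where alpha-actinin cross-links the actin filaments of opposite polarity and where titin is anchored. A group of smaller proteins binds alpha-actinin and titin there or along the titin spring in the I-band. Some of these are known to shuttle to the nucleus or to change in level when muscle is stretched or unloaded, for which reason they are described as mechanical sensors.

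Values are linear intensities in arbitrary units as deposited, already scaled to nearly equal trimmed means (100.1 on every array), and their precision is limited by the number of arrays. The duplicates of a pool correlated at 0.988 in HSL-null and 0.987 in wildtype across 6208 probe sets (not independent replicates), and the 4 pairs of arrays of different genotype at 0.983 to 0.986. Lipe measured 16.2 and 19.4 on the HSL-null arrays, against 71.4 and 70.2 on the wildtype arrays. By their brightest probe sets, the slow-fibre markers Tnnt1 and Myh7 measured between 4889 and 6183 on all 4 arrays. Tnnt1 was the highest value of each array. Dimmer probe sets measured 2505.3 to 2712.5 for Tnnt1 and 69.8 to 117 for Myh7. The beta-actin control's 3′ to 5′ signal ratio, a sign of RNA quality, was 0.816 and 0.823 on the HSL-null arrays and 0.688 and 0.706 on the wildtype arrays. For Gapdh it was 0.922 and 0.912 on the HSL-null arrays and 0.955 and 0.927 on the wildtype arrays.

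Among the 8 genes, Actn3 was about 3-fold higher in the HSL-null pool, Csrp3 and Ankrd2 were modestly lower on every array, and the arrays of the pools overlapped for Actn2, Tcap, Ldb3, Pdlim3 and Capn3. Separation was called where both HSL-null arrays lay on the same side of both wildtype arrays, by 1.5-fold or more in each of the 4 pairs. Both Actn3 probe sets met this rule as higher in HSL-null and 0 of the 11 met it as lower. Of all 6208 probe sets kept by a filter on dim signal, 0.226% were separated higher and 0.226% lower, 0.451% together. The 8 genes were chosen with earlier results of these data known, so the excess over that background is not independent support. All 11 probe sets of the 8 genes passed that filter, which keeps a mean intensity over the 4 arrays of at least 27.7. Without the demand on size, 2 of the 11 lay above on all 4 pairs and 2 below, beside 19.5% and 21.1% of all probe sets kept. The 4 of 11 without overlap (36.4%) are thus close to the background of 40.6%, and an order of the arrays alone says little about a single gene.

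**Figure D1:**
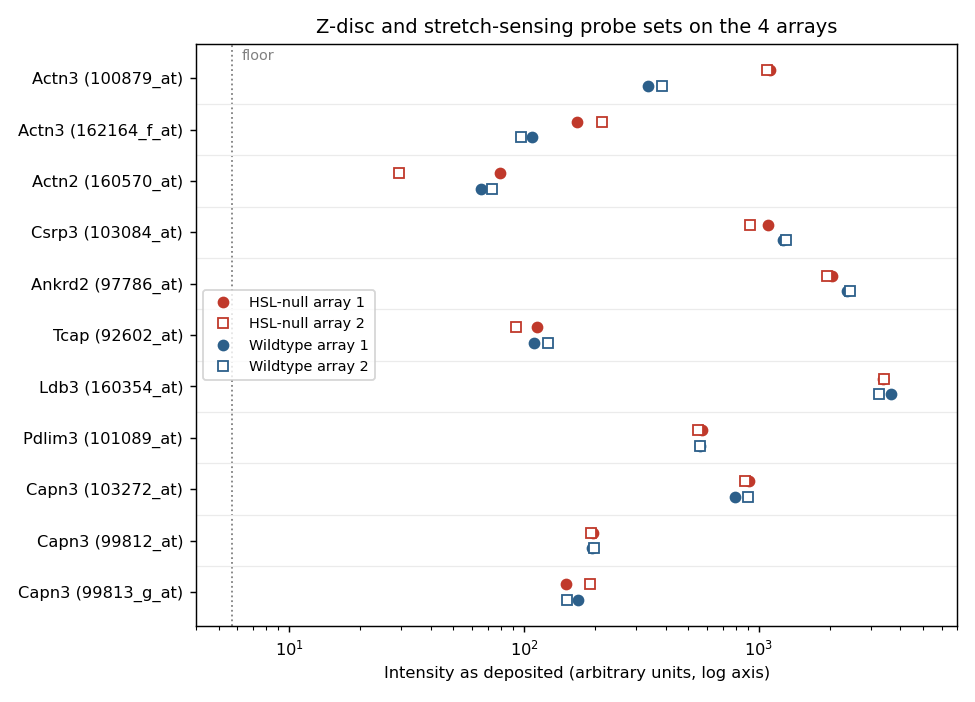
Intensity as deposited (arbitrary units, log axis) of the 11 probe sets on the 2 HSL-null arrays (red) and the 2 Wildtype arrays (blue), with the floor of 5.7 as a dotted line. Both Actn3 probe sets lie to the right in HSL-null, Csrp3 and Ankrd2 slightly to the left, and Actn2 has 1 HSL-null array at 29.3, far from its duplicate at 79.3.

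Actn3 encodes the alpha-actinin of fast, glycolytic fibres. Its brighter probe set measured 1115.6 and 1078.1 on the HSL-null arrays, against 336.4 and 385.2 on the wildtype arrays. Both HSL-null arrays thus lay far above both wildtype arrays, and the duplicates of a pool lay close together. The mean was 1097 ± 26.5 (SD, n = 2 arrays) in HSL-null and 361 ± 34.5 in wildtype, a log2 difference of 1.61 ± 0.10 (HSL-null minus wildtype, standard error of the duplicates). The smallest of the 4 pair differences was 2.80-fold. This difference was the 4th highest of all 6208 probe sets.

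The other Actn3 probe set measured 167.9 and 215.5 on the HSL-null arrays, against 108.4 and 97.3 on the wildtype arrays. The pools did not overlap here either, but the HSL-null duplicates differed 1.28-fold. Its log2 difference of 0.89 ± 0.20 ranked 18th highest. The probe sets therefore gave the same direction and different sizes, 3.05-fold and 1.85-fold. The platform's name for the dimmer one marks it as a probe set whose probes can match related sequences, and the smallest pair difference of 1.55-fold lay just past the 1.5-fold threshold.

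The higher Actn3 level stood beside higher levels of some other fast-fibre genes. Of 14 fast-twitch markers kept by the filter, 2 were separated higher (Myh4 and Pvalb), 0 lower and 12 neither. The shares of the 4851 named genes kept were 0.206% higher and 0.247% lower. This list was chosen with earlier results of these data known, so its excess over those shares is not independent support. The median log2 difference of the 14 markers was 0.080, beside -0.0041 over those named genes. Of those 14 differences, 13 lay above 0 with the values as deposited, with median centring and with loess, and 12 with quantile normalization. Of 11 slow-twitch markers kept, 9 lay above 0 as deposited and 5 with quantile normalization. The median of the slow-twitch markers was 0.039 as deposited. Over the 353 probe sets with a mean intensity of at least 1000 the median was 0.034. Myh4, which encodes the fastest myosin heavy chain of mouse limb muscle, measured 1897.1 and 1781.6 on the HSL-null arrays, against 279.2 and 277.3 on the wildtype arrays, by its brightest probe set. A dimmer Myh4 probe set measured 27.1 and 32.9 on the HSL-null arrays, against 26 and 27.8 on the wildtype arrays, and overlapped (log2 difference 0.15 ± 0.15). The summed intensity of the 15 fast-twitch markers on the array was 35317 to 35802 in HSL-null and 30266 to 32728 in wildtype, with 0 markers listed at 0. Much of that gap came from Myh4 and Pvalb. Pvalb measured 2254.7 and 2200.1 on the HSL-null arrays, against 1288.1 and 1352.2 on the wildtype arrays, by its brightest probe set. The wildtype duplicates also differed in their sums. For the 11 slow-twitch markers the sum was 41176 to 43047 in HSL-null and 39683 to 41889 in wildtype, again with 0 listed at 0. Their part in the Actn3 result was not tested. In a pool of whole muscle, more fibres of a type and more RNA per fibre cannot be told apart.

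Actn2 encodes the alpha-actinin that striated muscle fibres of all types contain. Its single probe set measured 79.3 and 29.3 on the HSL-null arrays, against 65.3 and 73.3 on the wildtype arrays. The wildtype values lay between those of the HSL-null duplicates, which differed 2.71-fold, the widest gap among the 11 probe sets. The log2 difference was -0.52 ± 0.72. It was 0.20 without HSL-null array 2 and -1.24 without HSL-null array 1, so that no direction could be given for Actn2. The Actn3 difference, by its brighter probe set, exceeded that of Actn2 by 2.13 ± 0.69 on the log2 scale. A scale factor of an array cancels in this contrast, but the wide spread of Actn2 enters it. With the mean of both Actn3 probe sets the excess was 1.77. By the brighter probe set the excess lay between 1.43 and 2.82 when single HSL-null arrays were left out, and it was thus above 0 with either array.

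The alpha-actinins of other cell types gave small differences of opposite sign by their brightest probe sets. Actn1 measured 92.6 and 101.1 on the HSL-null arrays, against 89.7 and 88.8 on the wildtype arrays (log2 difference 0.12 ± 0.064). Dimmer Actn1 probe sets, below the filter, lay at -0.26 ± 0.22 and 0.28 ± 0.18. Actn4 measured 85.3 and 83.4 on the HSL-null arrays, against 99.9 and 93.7 on the wildtype arrays (-0.20 ± 0.049). Of these 2 genes 0 were separated.

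Csrp3 encodes the muscle LIM protein, which binds alpha-actinin and telethonin at the Z-disc and is also found in nuclei. Its probe set measured 1092 and 917.5 on the HSL-null arrays, against 1265.2 and 1300.9 on the wildtype arrays. Both HSL-null arrays lay below both wildtype arrays, by 1.16-fold at the least. The mean was 1005 ± 123 (SD, n = 2 arrays) in HSL-null and 1283 ± 25.2 in wildtype, a log2 difference of -0.36 ± 0.13, which is 1.28-fold lower. The gap between the HSL-null duplicates, 1.19-fold, was nearly as wide as the difference between the pools, and the call of separated was not met.

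Ankrd2 encodes an ankyrin repeat protein that binds titin in the I-band and is known in mouse muscle as a gene induced by stretch. Its probe set measured 2054.4 and 1957.6 on the HSL-null arrays, against 2363.8 and 2450.2 on the wildtype arrays. Both HSL-null arrays were again below both wildtype arrays, and here the duplicates were close, at 1.05-fold in HSL-null and 1.04-fold in wildtype. The log2 difference was -0.26 ± 0.043, or 1.20-fold lower, and not separated. Over all 6208 probe sets, 7.04% had a difference larger in size than that of Csrp3 and 14.9% one larger than that of Ankrd2.

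Bright probe sets spread less than dim ones, and a comparison among them was added after the values were seen. Of the 353 probe sets with a mean intensity of at least 1000, Csrp3 had the 2nd lowest and Ankrd2 the 5th lowest difference. The median log2 difference of those 353 was 0.034. Over the 3 other scalings and the 4 left-out arrays, the rank of Csrp3 lay between 1 and 6 and that of Ankrd2 between 5 and 10. The levels of Csrp3 and Ankrd2 were lower, and that of Actn3 higher, where the beta-actin 3′ to 5′ ratio was higher (0.819 in HSL-null, 0.697 in wildtype). The Gapdh ratio went the other way (0.917 in HSL-null, 0.941 in wildtype). The part of RNA quality in these values was not tested.

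Since Csrp3 and Ankrd2 were the members lower on all 4 pairs, their promoters are shown, with that of Actn2 for comparison. Each runs from 250 bases before to 50 bases after an annotated start of transcription, from RefSeq (GRCm38.p6), 5′ to 3′ on the strand of the gene. Those of Csrp3 (chr7:48848002-48848301, minus strand, the more upstream of its 2 starts), Ankrd2 (chr19:42035777-42036076, plus strand) and Actn2 (chr13:12340683-12340982, minus strand) read as follows. Every match to the E-box motif CANNTG, whatever its 2 middle bases, is in capitals.
Csrp3: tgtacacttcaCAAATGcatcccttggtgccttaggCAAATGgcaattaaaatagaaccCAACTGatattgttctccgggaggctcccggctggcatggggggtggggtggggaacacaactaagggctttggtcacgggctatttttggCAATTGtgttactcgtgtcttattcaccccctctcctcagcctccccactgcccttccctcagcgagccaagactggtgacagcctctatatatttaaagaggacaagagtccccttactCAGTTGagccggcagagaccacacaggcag
Ankrd2: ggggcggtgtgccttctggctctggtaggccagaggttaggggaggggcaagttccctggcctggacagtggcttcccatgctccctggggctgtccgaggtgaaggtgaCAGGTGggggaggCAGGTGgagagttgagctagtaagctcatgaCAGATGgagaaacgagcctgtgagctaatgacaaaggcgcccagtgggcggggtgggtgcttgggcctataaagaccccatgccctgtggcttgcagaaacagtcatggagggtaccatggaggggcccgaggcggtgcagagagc
Actn2: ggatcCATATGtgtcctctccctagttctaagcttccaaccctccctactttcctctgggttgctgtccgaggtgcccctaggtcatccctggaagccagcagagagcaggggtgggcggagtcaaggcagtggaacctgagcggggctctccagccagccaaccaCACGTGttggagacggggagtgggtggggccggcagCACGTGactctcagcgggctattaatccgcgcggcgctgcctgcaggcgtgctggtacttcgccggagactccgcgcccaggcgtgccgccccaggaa

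The Csrp3 promoter held 5 E-boxes, that of Ankrd2 3 and that of Actn2 3. At least 1 E-box was found in 72.3% of the 32851 promoters of the RefSeq table, so that its presence does not set these promoters apart. The MCAT element (CATTCC on either strand), the MEF2 site and the CArG box were searched too, on both strands, and had 0 matches in these 3 windows. Of the 8 genes, 6 had an entry in the table. The 2 windows of Ldb3 overlap and hold the same CArG box (1.63% of all promoters hold at least 1). Before Pdlim3 lay 2 MCAT elements (14.7% hold at least 1), and before 1 of the 2 starts of Capn3 a MEF2 site (3.19%). The matches are descriptions of sequence, and Actn3 and Tcap were not analysed here.

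Tcap encodes telethonin, which caps the ends of titin at the Z-disc. Its probe set measured 113.2 and 92.2 on the HSL-null arrays, against 109.8 and 127 on the wildtype arrays. The lower wildtype array fell between the HSL-null duplicates, so that the pools overlapped. The log2 difference was -0.21 ± 0.18, about the size of its error, and 3 of the 4 pairs were below 0.

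Ldb3 and Pdlim3 encode PDZ-LIM proteins that bind alpha-actinin, known as Cypher or ZASP and as ALP. The probe set of Ldb3 measured 3360.1 and 3409.2 on the HSL-null arrays, against 3638.2 and 3238.6 on the wildtype arrays. The HSL-null values lay between the wildtype duplicates, and the log2 difference was -0.020 ± 0.085. That of Pdlim3 measured 573.9 and 548.4 on the HSL-null arrays, against 563 and 561.9 on the wildtype arrays. It was the most even of the 8 genes, with a log2 difference of -0.0037 ± 0.033.

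Capn3 encodes calpain-3, a muscle protease held on titin. Its brightest probe set measured 905.3 and 872.3 on the HSL-null arrays, against 787.8 and 896.9 on the wildtype arrays. The other pair of probe sets was designed on one accession. One measured 195.7 and 192.4 on the HSL-null arrays, against 194.8 and 199.3 on the wildtype arrays. The other measured 151.1 and 190 on the HSL-null arrays, against 169.4 and 152.9 on the wildtype arrays. The pools overlapped on all 3. Their log2 differences were 0.080 ± 0.097, -0.022 ± 0.021 and 0.074 ± 0.18, each within or close to its error, and the first turned to -0.013 without wildtype array 1. A difference of this size could not be told from the spread of the duplicates.

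**Figure D2:**
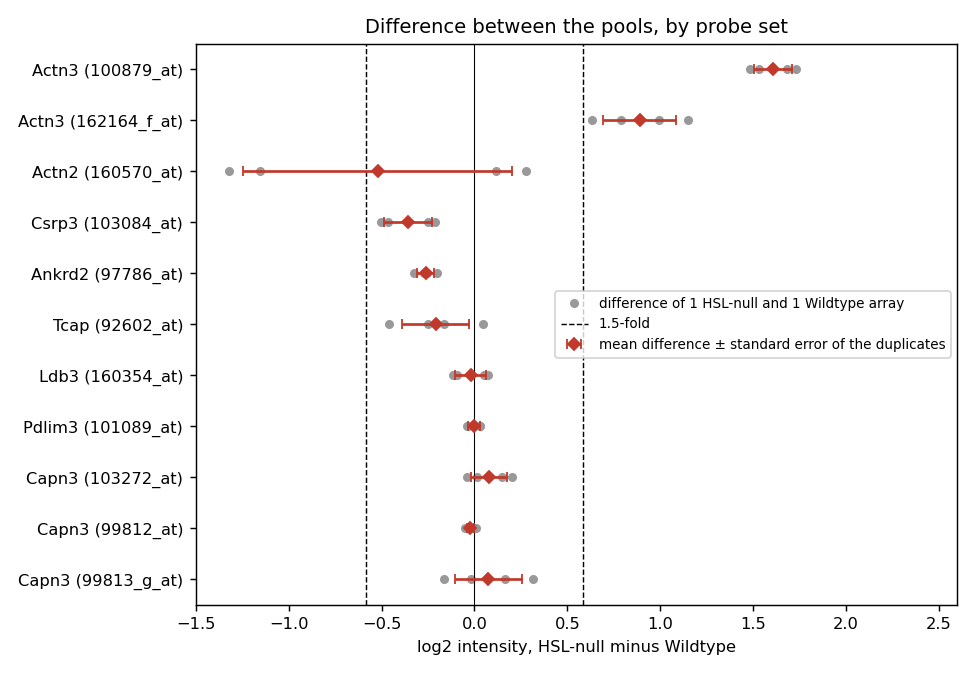
Log2 difference of HSL-null minus Wildtype for each probe set. Grey points are the 4 differences between single arrays, red diamonds their mean with the standard error of the duplicates, and dashed lines mark 1.5-fold. Both Actn3 probe sets lie past the line on all 4 points, and Csrp3 and Ankrd2 lie below 0 on all 4 without reaching it.

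The 8 genes thus did not move as a block. By the brightest probe set of each gene, 2 lay above 0 and 6 below, with a median of -0.11, beside -0.0022 over all 6208 probe sets kept. With median centring or loess 3 lay above 0 and 5 below. The mean of the 8 was 0.039, of the opposite sign, because Actn3 weighs in it.

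**Figure D3:**
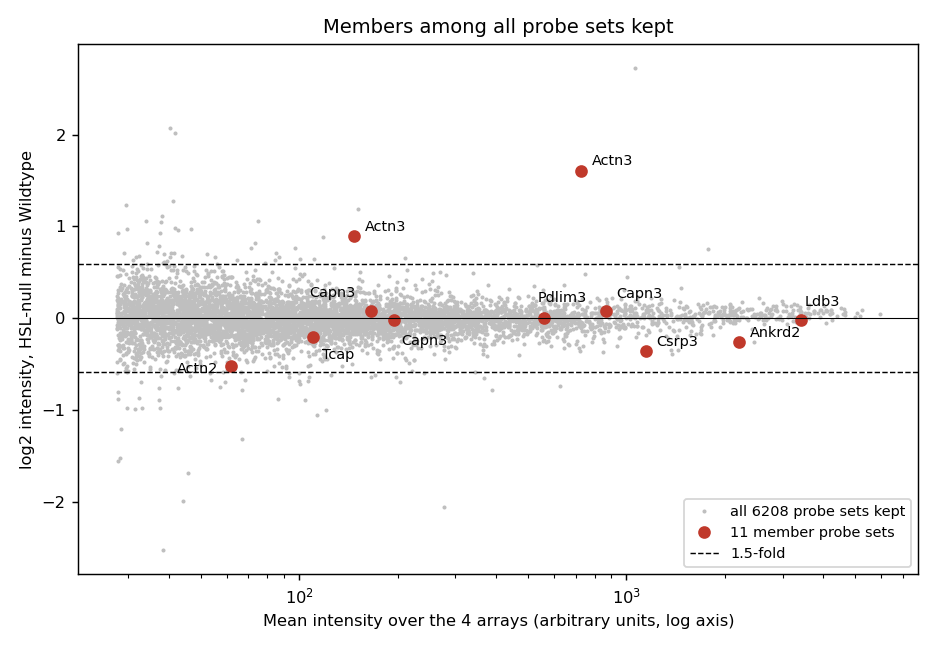
Log2 difference of HSL-null minus Wildtype against mean intensity over the 4 arrays (log axis) for all 6208 probe sets kept (grey) and the 11 described (red). Dashed lines mark 1.5-fold. The brighter Actn3 probe set stands far above the cloud at its level, and the dimmer one lies lower, at 0.89. Csrp3 and Ankrd2 lie at the lower edge of the narrow cloud of bright probe sets.

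Other genes of the Z-disc and its partners gave no separated member. Over 7 lists with 77 genes, 47 genes had a probe set and 45 passed the filter, and 0 were separated in either direction, beside 0.206% and 0.247% of the 4851 named genes by their brightest probe set. Without overlap, 12 lay higher in HSL-null (26.7%) and 15 lower (33.3%), beside 19.7% and 21.5% of all named genes. Their median was -0.029.

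Scaffold genes of the Z-disc were of mixed direction, with 2 of 9 higher and 5 lower without overlap (3 lower with median centring). Xirp1, an actin-binding repeat protein of striated muscle, measured 1201.2 and 1216.5 on the HSL-null arrays, against 1555.2 and 1515.9 on the wildtype arrays. Its log2 difference of -0.35 ± 0.021 was as large as that of Csrp3, with a smaller error. Myoz1, the calsarcin of fast fibres that ties calcineurin to alpha-actinin, measured 1393.6 and 1334.2 on the HSL-null arrays, against 1150.4 and 1216.1 on the wildtype arrays (0.21 ± 0.051). Capza2, a subunit of the actin capping protein, lay at 0.16 ± 0.039, the co-chaperone gene Bag3 at -0.12 ± 0.065, and Nrap at -0.036 ± 0.028. A dimmer Bag3 probe set lay at -0.25 ± 0.071, lower without overlap.

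LIM and PDZ-LIM genes related to Csrp3, Ldb3 and Pdlim3 had a median of 0.044 over 6 genes, with 2 higher and 1 lower without overlap. The sign of that median turned under quantile normalization (-0.0040). Fhl1, a four-and-a-half-LIM protein of muscle, measured 3913.4 and 3947 on the HSL-null arrays, against 3817 and 3734.9 on the wildtype arrays. That is a log2 difference of 0.058 ± 0.017. Pdlim1 lay at 0.030 ± 0.11, Pdlim4 at 0.28 ± 0.13 and Csrp1 at -0.15 ± 0.090. A Csrp1 probe set of similar brightness lay at 0.030 ± 0.13 and overlapped. A much dimmer Pdlim1 probe set lay at 0.31 ± 0.092, higher without overlap.

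Of 9 genes tied to titin's stretch-sensing domains, 3 had a probe set. All 3 passed the filter, and 2 were lower without overlap (1 with median centring). Ankrd1, the cardiac relative of Ankrd2, was dim and measured 25.4 and 29.6 on the HSL-null arrays, against 37.8 and 32.7 on the wildtype arrays. Its log2 difference was -0.36 ± 0.15, in the direction of Ankrd2. Sqstm1, which encodes the autophagy receptor p62, lay at -0.084 ± 0.055 and Nbr1 at 0.028 ± 0.12.

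The calcineurin pathway, which the Z-disc anchors, had 4 of 11 genes higher and 1 lower without overlap (2 higher with quantile normalization, 5 with median centring). Rcan1, a calcineurin inhibitor whose transcription calcineurin itself drives, was the lower one. It measured 1078.9 and 1075.1 on the HSL-null arrays, against 1207.9 and 1232 on the wildtype arrays (-0.18 ± 0.014). Ppp3r1, the regulatory subunit of calcineurin, lay at 0.17 ± 0.045. The transcription factor genes Nfatc2, Nfatc3 and Mef2d lay at 0.25 ± 0.11, 0.070 ± 0.033 and 0.040 ± 0.027. Mef2c, counted by its brightest probe set, overlapped (0.046 ± 0.052). Its dimmer probe sets lay at 0.34 ± 0.065, 0.24 ± 0.071 and 0.26 ± 0.15, each higher without overlap.

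Among 8 genes of the calpain system other than Capn3, which include the calpain inhibitor gene Cast, 1 was higher and 3 lower without overlap (2 higher with each other scaling). Capns1, the small subunit shared by the ubiquitous calpains, measured 745 and 763.2 on the HSL-null arrays, against 813.3 and 858.3 on the wildtype arrays (-0.15 ± 0.043). Capn2 lay at -0.20 ± 0.032, Capn6 at -0.16 ± 0.071 and Capn1 at -0.045 ± 0.053. Capn5, the higher one, rested on a single array, with 32.1 and 58.4 on the HSL-null arrays against 31.4 and 26.8 on the wildtype arrays.

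Genes of the M-band and of the thin filament had 2 of 6 higher and 2 lower without overlap (1 higher with quantile normalization). Mybph, a myosin-binding protein, was dim and measured 27.3 and 25.3 on the HSL-null arrays, against 35.5 and 38.9 on the wildtype arrays (-0.50 ± 0.086). Myom1, which encodes myomesin, lay at -0.10 ± 0.028, Tmod3 at 0.16 ± 0.085 and Acta1, the skeletal muscle actin, at 0.083 ± 0.020. Acta1 measured between 5072 and 5465.

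**Figure D4:**
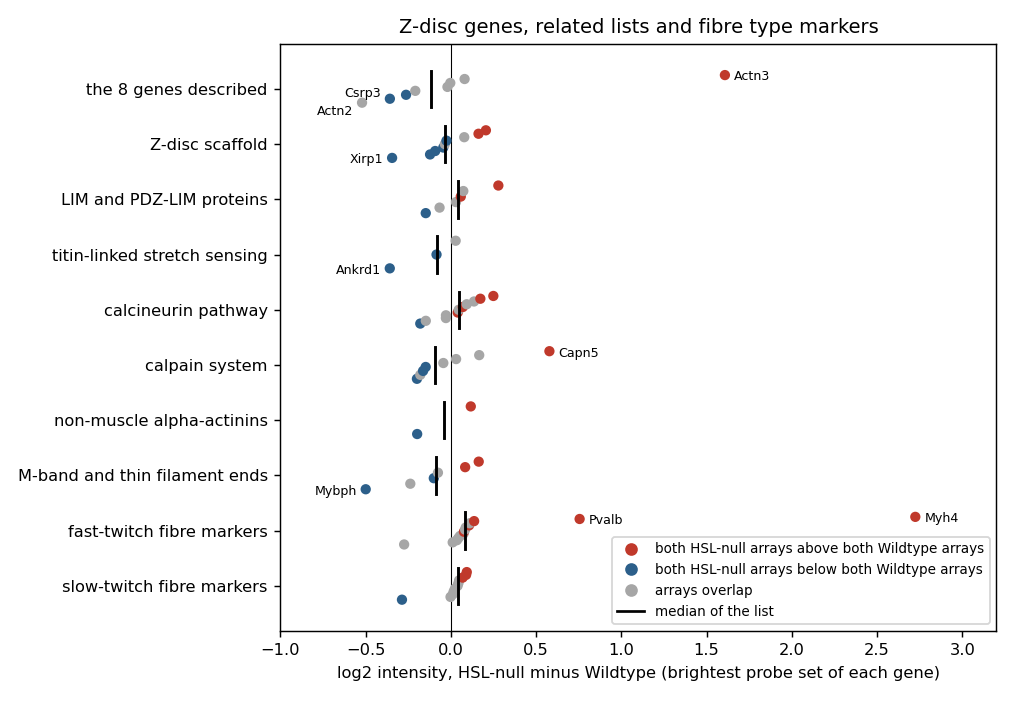
Log2 difference of HSL-null minus Wildtype for the brightest probe set of each gene kept, by list. Red points have both HSL-null arrays above both Wildtype arrays, blue points both below, grey points overlap, and black bars are medians. Actn3, Myh4 and Pvalb stand apart to the right, and the Z-disc lists lie around 0 with Xirp1, Ankrd1 and Mybph at their lower ends.

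Markers of other cells were read beside these values. Counts are of the markers kept by the filter, and sums are over all markers of a list on the array. Of all named genes kept, 19.7% lay higher and 21.5% lower without overlap. Over fibroblast markers, 6 of 6 lay higher in HSL-null without overlap (5 with quantile normalization) and 0 were separated, with a summed intensity of 3939 to 4072 in HSL-null and 3448 to 3483 in wildtype. The 6 adipocyte markers on the array summed to 264 to 279 in HSL-null and 363 to 395 in wildtype. Of the 3 kept, 2 were lower without overlap and 1, Adipoq, was separated lower, beside 0.247% of named genes. Adipoq measured 73.5 and 74.1 on the HSL-null arrays, against 150.2 and 157.2 on the wildtype arrays. Of 5 smooth muscle markers kept, 1 was higher and 2 were lower without overlap, and the sum over the 6 on the array was 655 to 686 in HSL-null and 705 to 781 in wildtype. Endothelial markers had 1 of 6 lower (sum 756 to 767 in HSL-null, 787 to 826 in wildtype), macrophage markers 1 of 5 higher (sum over 6, 409 to 422 in HSL-null, 414 to 422 in wildtype) and tendon markers 1 of 2 higher (1106 to 1263 in HSL-null, 1034 to 1088 in wildtype). Satellite cell and denervation markers had 3 of 6 lower (sum over 9, 990 to 1000 in HSL-null, 1042 to 1070 in wildtype). In each of these lists 0 markers were listed at 0, and their part in the Z-disc values was not tested.

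The genes whose profile over the 4 arrays was most like that of Actn3 were found by the root mean square distance between log2 profiles, each minus its own mean. Among 4843 other named genes, Med1 was the nearest at 0.17, followed by H2-M10.1 at 0.24, Pfkfb3 at 0.29, St8sia4 at 0.29 and Serpina3n at 0.36. All 5 were far dimmer than Actn3, at 14.2 to 113 on the 4 arrays. The nearest to Csrp3 lay at 0.015 (Apoe), 0.016 (Msl2), 0.025 (Yap1), 0.027 (Fkbp4) and 0.033 (Suz12). The distance was not scaled to the size of a gene's difference, which is smaller for Csrp3 than for Actn3. With 4 arrays of 2 pools this likeness is a description and says nothing of shared function.

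**Figure D5:**
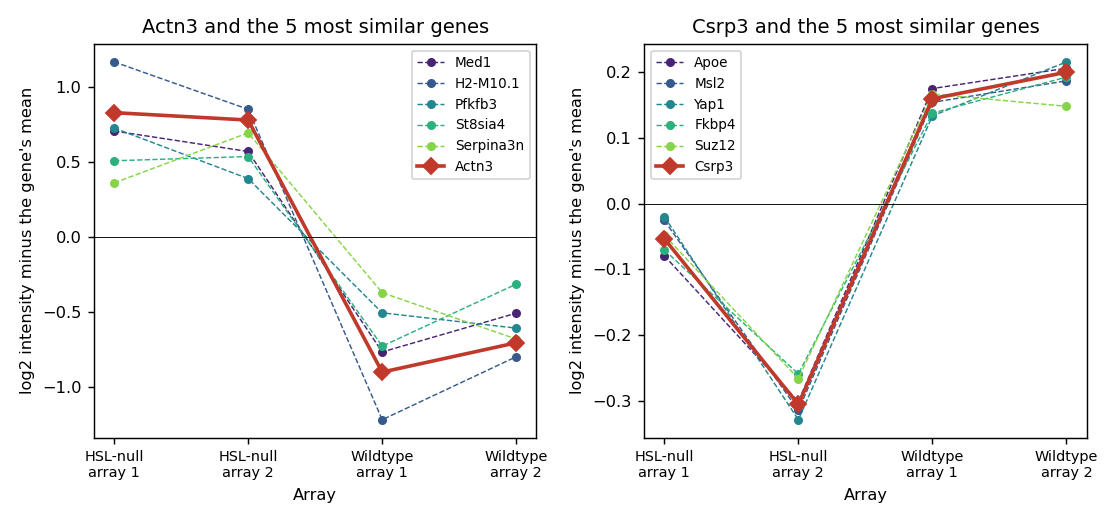
Log2 intensity minus the gene's own mean on each array for Actn3 (left) and Csrp3 (right) with the 5 genes nearest to each by root mean square distance. The Actn3 neighbours lie at distances of 0.17 to 0.36, and the Csrp3 neighbours lie within 0.033 of it, lowest on HSL-null array 2.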

How the data were processed

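The authors deposited 1 linear intensity per probe set and array, already scaled, with a mean of 100.1 on each array after 2% of the values were trimmed from each end, as tested on the values. The software and background correction were not given in the sources used here, and no detection calls were used. The 66 control probe sets were left out.

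Intensities below the table's 25th percentile (5.7) were raised to it before log2. The background is the 6208 probe sets with a mean at or above the median (27.7). Gene symbols came from the platform annotation, updated by gene ID to RefSeq (GRCm38.p6) for 10839 of 10855 probe sets with 1 symbol (396 had several and 1237 were not listed). A gene stands in its list by its brightest probe set. Of each list the separated genes, or otherwise the 2 brightest and up to 3 without overlap, were named. Mef2c was added after the values were seen. Members and lists were chosen with earlier results of these data known. Errors are SDs over 2 arrays or standard errors of the duplicates, and measure the arrays, not the animals. The call of separation was tested on simulated data that carried the spread of the duplicates only. Those data held no variation between pools or animals, so they cannot tell a genotype difference from a pool difference. Alternatives were median centring, quantile normalization and cyclic loess (limma 3.58.1, R 4.3.3; values under 0.1 set to 0.1), the floor, the size threshold, the filter, left-out arrays and the replicate number. Scripts ran in Python 3.11.15 with numpy 2.4.6, pandas 2.3.3 and matplotlib 3.10.9.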

Additional observations from a re-analysis of the deposited data

How the results depend on the processing

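Of the 11 probe sets, 2 were separated with median centring, quantile normalization, loess, a smaller size threshold and the filter applied to members, and 1 with a 2-fold threshold, where the dimmer Actn3 probe set no longer passed. Without single arrays the count was 2 to 3, the third being Actn2 without HSL-null array 1. The count without overlap was 4 or 5 under the scalings and 6 to 9 without single arrays, where fewer pairs remain to be met. The Actn3 difference lay between 1.51 and 1.70 and that of its dimmer probe set between 0.71 and 1.07 over the scalings and the left-out arrays. The floors at the 10th and 40th percentile lie below every value of the 11 probe sets, and they and the replicate block leave each difference as it is by construction. Of the other probe sets, the sign turned for Actn2, Ldb3, Pdlim3 and 2 probe sets of Capn3 under at least 1 alternative. Same-numbered arrays shared only a number (correlation of their deviations -0.086), and with the replicate number as a block 2 probe sets were separated and 4 did not overlap. Signal over background limits most the dimmest member, Actn2, at 29.3 to 79.3.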

Other observations

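The lower end of the bright probe sets was listed after the values were seen. Of the 353 probe sets with a mean intensity of at least 1000, the lowest differences that belonged to a named gene were those of Csrp3 (-0.36 ± 0.13, HSL-null minus wildtype), Xirp1 (-0.35 ± 0.021) and Ankrd2 (-0.26 ± 0.043), at ranks 2, 3 and 5. The probe sets at ranks 1, 4 and 6 had no single symbol in the annotation used here. Next came Lmna, which encodes the nuclear lamins A and C, at -0.22 ± 0.083 and Dag1, which encodes dystroglycan, at -0.20 ± 0.051. Both HSL-null arrays lay below both wildtype arrays for each of these 5 genes. Xirp1 ranked between 2 and 4 over the 3 other scalings and the 4 left-out arrays, Csrp3 between 1 and 6 and Ankrd2 between 5 and 10. No test across animals was possible for this order.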
